A study of Homo sapiens with 6 samples.

Results

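The S100 calcium-binding protein genes described here were 10 genes taken from a fixed list of names: S100A1, S100A2, S100A3, S100A4, S100A6, S100A10, S100A11, S100A13, S100A16 and S100B. They were chosen as short genes with known roles in melanoma and metastasis, by a rule that uses names and no measured value but was written with earlier results of these data known, and each name was matched to its Ensembl identifier. All 10 were found among the 58243 genes of the count files, and all 10 passed the filter on low counts. The libraries were 4sU-seq libraries, which sample nascent RNA, of A375 cells, a human melanoma line. The control group (EV, 3 libraries named B1, B2 and B3) carried an empty vector, and the other group (PRL3, 3 libraries named B9, B10 and B11) carried a plasmid for HA-tagged PRL3, a phosphatase encoded by PTP4A3. Both groups were stable transfectants grown in DMEM with serum and with hygromycin B at 100 µg/ml, and both received 500 µM 4-thiouridine for 20 min before lysis, and the thiolated, newly made RNA was then purified through biotin. Whether either transfectant was a single clone is not given in the sources used here. The sources also do not say whether the libraries of a group came from separate cultures, so p-values below measure only the spread between these libraries. The comparison asked how exon counts of the S100 genes in the purified RNA differed when PRL3 was overexpressed. Exon counts can include carried-over mature mRNA. For their elongation estimates the authors used intron reads, to avoid effects of splicing or such carry-over. The part of mature mRNA in the values below was not tested.

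S100 proteins are small proteins with paired EF-hand motifs that bind calcium, and most act as dimers that grip a partner protein once calcium is bound. They act inside the cell on the cytoskeleton, on annexins and on p53, and some are released and signal through receptors such as RAGE, the product of AGER. In melanoma, S100B is a routine serum and tissue marker, while S100A4, also called metastasin, is known for promoting cell motility and metastasis. Most human S100 genes lie side by side in the epidermal differentiation complex of chromosome band 1q21, and S100B lies apart on chromosome 21.

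The 9 listed genes on chromosome 1 ran from S100A10 (GRCh38, start 151982915, end 151993859) to S100A1 (start 153627926, end 153632039). S100B lay on chromosome 21, start 46598604, end 46605208. Every member had 3 exons in its canonical transcript. The genomic spans ran from 1646 bases for S100A6 to 15402 bases for S100A11, and only S100A10 (10945 bases), S100A11 and S100A13 (12574 bases) exceeded 10 kb. S100A1 was on the forward strand and the other 9 members were on the reverse strand. S100A3 lay inside the span of S100A4 without sharing exon bases with it.

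Promoter sequence, meaning the 250 bases before an annotated start, was read from RefSeq (GRCh38.p14) for 9 of the 10 members, in 13 windows, and S100B had no entry. The windows were searched on both strands for 5 motifs fixed in a list, and overlapping matches of different motifs were each kept. The TATA box core, TATAAA, was found in 2 of the 13 member windows and in 10.7% of all 35116 windows. The GC box, GGGCGG, was found in 6 of the 13 and in 42.6% of all windows. The AP-1 site, TGACTCA, was found in 2 of the 13 and in 4.2% of all windows. The M box core, CATGTG, was found in 2 of the 13 and in 9.42% of all windows. The E box, CACGTG, was found in 0 of the 13 and in 6.34% of all windows. These are matches of letters in a window and not measured binding sites. The 4 windows below are shown because they include the member with one of the largest falls (S100A4), the gene nested within its span (S100A3), S100A2 as the member with a match to the AP-1 motif on its own strand, and S100A10 as the called member with the smallest fall. Each is written 5′ to 3′ on the strand of the gene, ends at the base before the start, and has motif matches in capitals. The S100A4 window (chr1:153545807-153546056, reverse strand) held TATAAA beginning 31 bases upstream of the start. The S100A3 window (chr1:153549259-153549508, reverse strand) held GGGCGG beginning 142 bases upstream and an AP-1 match on the opposite strand 225 bases upstream. The S100A2 window (chr1:153565845-153566094, reverse strand) held TGACTCA 52 bases upstream, and the S100A10 window (chr1:151993860-151994109, reverse strand) held GGGCGG 167 bases upstream.
S100A4: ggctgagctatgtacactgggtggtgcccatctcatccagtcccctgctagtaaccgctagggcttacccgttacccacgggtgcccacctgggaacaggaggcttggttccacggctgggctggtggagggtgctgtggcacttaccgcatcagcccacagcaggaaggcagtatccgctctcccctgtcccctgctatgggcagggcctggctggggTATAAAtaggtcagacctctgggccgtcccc
S100A3: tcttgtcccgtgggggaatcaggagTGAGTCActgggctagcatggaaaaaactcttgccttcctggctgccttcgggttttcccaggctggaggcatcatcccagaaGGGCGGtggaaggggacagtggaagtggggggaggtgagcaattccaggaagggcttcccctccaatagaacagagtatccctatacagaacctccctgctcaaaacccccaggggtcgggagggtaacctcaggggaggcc
S100A2: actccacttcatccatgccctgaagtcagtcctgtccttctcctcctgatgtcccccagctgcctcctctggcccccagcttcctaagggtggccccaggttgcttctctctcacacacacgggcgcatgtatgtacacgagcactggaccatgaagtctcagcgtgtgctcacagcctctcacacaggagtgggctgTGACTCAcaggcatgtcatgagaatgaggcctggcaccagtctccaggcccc
S100A10: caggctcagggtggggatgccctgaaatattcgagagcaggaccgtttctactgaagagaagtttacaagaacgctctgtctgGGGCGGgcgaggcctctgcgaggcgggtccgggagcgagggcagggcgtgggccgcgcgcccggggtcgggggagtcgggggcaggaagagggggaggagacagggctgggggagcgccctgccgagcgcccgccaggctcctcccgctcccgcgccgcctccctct

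Between 36532207 and 57952035 reads were counted on genes per library, as whole numbers without normalization. Values below are normalised counts, that is, counts divided by the TMM-scaled library size and brought to a common mean size. The transfected gene checked the labels: PTP4A3 had 217 ± 59.4 normalised counts (SD, n = 3) in EV and 24387 ± 3796 (SD, n = 3) in PRL3, a log2 fold change of 6.80 (SE 0.25, adjusted p = 1.1e-08 by edgeR's quasi-likelihood test). Among reads aligned to a single place, those outside annotated exons made up 33.3% ± 6.75 in EV and 66.3% ± 3.18 in PRL3 (SD, n = 3 each), without overlap between the groups. The two-sided exact permutation p was 0.1, which is the lowest value this design can reach. Only exon reads enter the counts of the S100 genes, and the part of this shift in the differences below was not tested. No library number was shared between the groups, and the labels do not say what the numbers stand for. They name no batch, so a difference in culture or pulldown day, if there was one, cannot be told apart from PRL3. In bulk RNA, fewer cells that make a transcript and less of it per cell cannot be told apart either.

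The 10 genes covered a wide range of levels in EV cells. In RPKM, computed here as reads per kb of exon relative to the TMM-scaled library size so that genes of different length can be compared, S100A6 (calcyclin) led with 1552 ± 308 (SD, n = 3), rank 15 of 14443 protein-coding genes tested. It was followed by S100A10 with 332 ± 42.1, S100A11 with 276 ± 29.4, S100A16 with 238 ± 29.3 and S100A4 with 236 ± 43.5. These 4 genes formed a group within which each neighbouring pair overlapped in its libraries. S100A2 followed at 98.8 ± 8.84 and S100B at 33.6 ± 5.29, and the libraries of each did not overlap with those of its neighbours in the order. S100A3 (18.8 ± 5.43), S100A13 (12.1 ± 3.62) and S100A1 (6.27 ± 2.40) were lowest, and neighbours in this order overlapped. The median protein-coding gene tested stood at 4.54 on the same scale, so all 10 members were above it in EV cells.

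In PRL3 cells S100A6 still led, with 332 ± 121 RPKM (SD, n = 3), and rank 51 of the same genes. S100A10 (179 ± 15.4), S100A11 (104 ± 11.3) and S100A16 (81.7 ± 12.8) kept the next places, and of these neighbours only S100A11 and S100A16 overlapped. S100A4 stood at 39.5 ± 9.51, overlapping S100A2 at 27.9 ± 9.87, and its rank went from 198 in EV to 614. S100A13 at 8.81 ± 0.679 was above S100A3 at 4.94 ± 1.27, an exchange of places relative to EV. S100A1, at 1.03 ± 0.292, was below the protein-coding median of 4.22 and its rank went from 6099 to 10862.

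**Figure D1:**
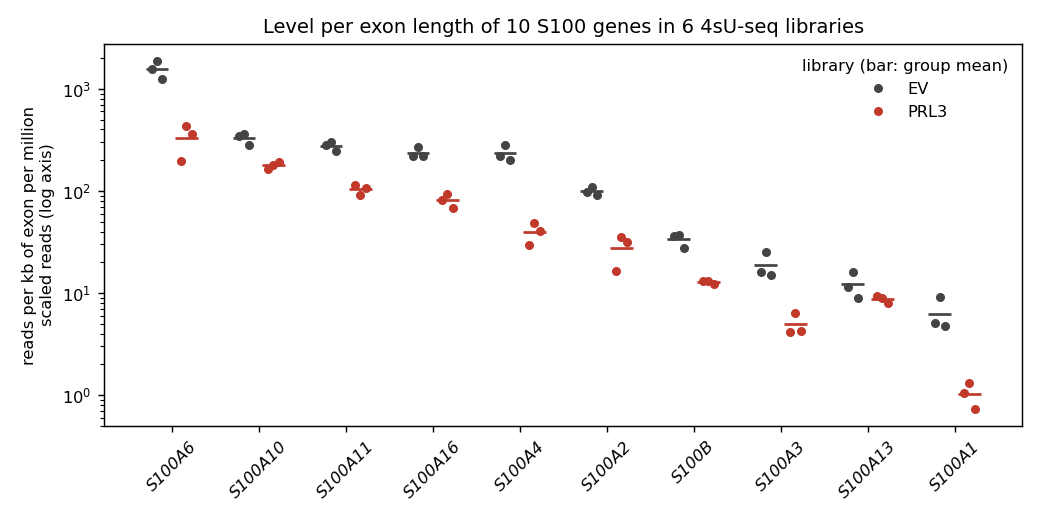
Level of each S100 gene in RPKM, reads scaled by exon length and library size (log axis), with 1 point per library and a bar at the group mean of 3 EV or 3 PRL3 libraries. The PRL3 points lie below all EV points for every gene except S100A13, and the level of S100A6 goes from a mean of 1552 in EV to 332 in PRL3.

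Nearly the whole set was lower in PRL3 cells. In the edgeR fit, with p-values adjusted over all 23884 genes tested, 9 of the 10 members fell and 0 rose at an adjusted p threshold of 0.05, where 22.7% of all genes tested were called lower and 20.0% higher. No member had a positive fold change, so 0 members were higher at an unadjusted p below 0.05, and DESeq2 and limma-voom also called 9 lower and 0 higher. The same 9 had all 3 PRL3 libraries below all 3 EV libraries, which held for 26.6% of all genes tested. The median log2 fold change of the 10 was -1.68 with a range from -2.60 to -0.46, whereas the median of all genes tested was 0.11. A fall of more than 1 on the log2 scale was measured for 8 members, and 13.3% of all genes combined such a fall with an adjusted p under the threshold.

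The size of each fold change depended on the scaling between libraries. With library size alone the median of the members was -1.20 and that of all genes 0.60, and with all uniquely aligned reads as library size the medians were -2.16 and -0.36. The difference between the median of the members and that of all genes was -1.79 with TMM and -1.80 under both of these scalings. A change of scaling shifts the fold changes of all genes by nearly the same amount. This difference could therefore hardly move, and its constancy is not a test of the fall. With library size alone, 9 members were called lower (12.9% of all genes lower, 39.8% higher). With all uniquely aligned reads, 10 members were called lower (35.5% of all genes lower, 8.17% higher). Under no scaling tried was a member called higher.

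**Figure D2:**
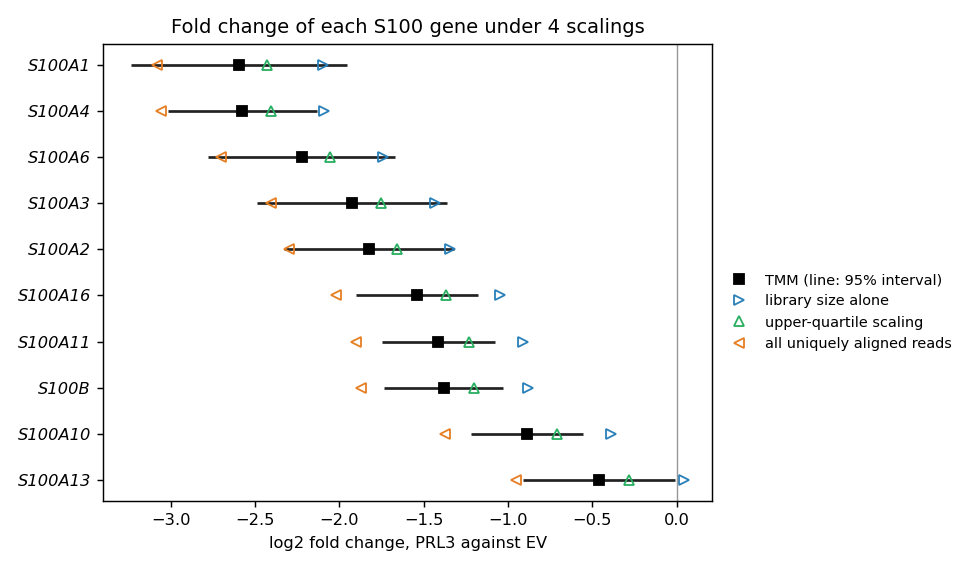
Log2 fold change of PRL3 against EV for each S100 gene under 4 scalings, with the 95% interval of the TMM fit as a line. The 9 called genes stay left of 0 under every scaling drawn, while S100A13 lies at -0.46 with TMM and at 0.045 with library size alone.

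With TMM scaling, S100A4 and S100A6 fell more than 4-fold, as did S100A1, described below. S100A4, which is known for its part in motility and binds non-muscle myosin IIA, had 9884, 12692 and 8976 normalised counts in EV B1, B2 and B3 and 1324, 2171 and 1788 in PRL3 B9, B10 and B11. Every PRL3 library was thus far below the lowest EV library. The log2 fold change was -2.58 (SE 0.21, adjusted p = 7.35e-06), a level 5.97-fold lower. S100A6, a calcium sensor that binds the ubiquitin ligase component CACYBP, had 70973, 85045 and 56854 normalised counts in EV and 9085, 19952 and 16500 in PRL3. The groups did not overlap, although the spread in PRL3 was wide, with a coefficient of variation of 36.6% and B9 the lowest library. Its log2 fold change was -2.22 (SE 0.26, adjusted p = 2.8e-05), a level 4.67-fold lower.

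S100A2 and S100A3, which lie next to S100A4 on the chromosome, fell as well. S100A2, a mainly nuclear protein known to bind p53, had 7053, 7894 and 6629 normalised counts in EV and 1210, 2557 and 2319 in PRL3. Library B9 was again the lowest, and the coefficient of variation was 8.95% in EV against 35.4% in PRL3. The log2 fold change was -1.83 (SE 0.23, adjusted p = 5.14e-05). S100A3, a cysteine-rich member known from the hair cuticle, had 642, 993 and 601 normalised counts in EV and 166, 254 and 167 in PRL3. Its groups were well apart, and the log2 fold change was -1.92 (SE 0.26, adjusted p = 8.11e-05).

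S100A10 and S100A11 are considered next. S100A10, also called p11, does not bind calcium and forms a tetramer with annexin A2 at the membrane. It had 16550, 17334 and 13537 normalised counts in EV and 7774, 8622 and 9236 in PRL3. The groups were apart but the fall was the smallest of the called members, with a log2 fold change of -0.89 (SE 0.15, adjusted p = 0.000515). S100A11, which binds annexin A1, had 8674, 9209 and 7453 normalised counts in EV and 3478, 2796 and 3243 in PRL3. It was 2.66-fold lower, with a log2 fold change of -1.41 (SE 0.15, adjusted p = 2.01e-05) and little spread within either group. S100A11 has processed pseudogenes, and reads shared with them may have been left uncounted.

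S100A16, one of the most widely expressed members, had 17636, 21743 and 17717 normalised counts in EV and 6585, 7546 and 5496 in PRL3. All 3 PRL3 libraries were well below EV, with a log2 fold change of -1.54 (SE 0.17, adjusted p = 1.93e-05). S100B, the melanoma marker, had 3070, 3164 and 2342 normalised counts in EV and 1121, 1115 and 1053 in PRL3. It had the tightest PRL3 libraries of the set, with a coefficient of variation of 3.47%, and was 2.61-fold lower (log2 fold change -1.38, SE 0.16, adjusted p = 3.12e-05). S100A1, best known as a regulator of calcium handling in heart muscle, had 723, 1290 and 671 normalised counts in EV and 148, 188 and 105 in PRL3. The level was 6.05-fold lower, with a log2 fold change of -2.60 (SE 0.30, adjusted p = 2.55e-05). This was within its error of the value of S100A4, and the order of these genes turned with limma-voom (-2.53 for S100A1, -2.58 for S100A4), without EV B2 (-2.23 and -2.41) and without PRL3 B11 (-2.40 and -2.58).

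S100A13, needed for the export of FGF1 by a route outside the classical secretory pathway, was the exception. It had 1196, 1675 and 928 normalised counts in EV B1, B2 and B3 and 977, 941 and 840 in PRL3 B9, B10 and B11. EV B3 lay within the PRL3 range, so the groups overlapped. The log2 fold change was -0.46 (95% interval -0.91 to -0.011, SE 0.21, adjusted p = 0.0916 by edgeR), which did not pass the threshold, and the exact permutation test gave p = 0.3. The call turned on single choices: without EV B3 the log2 fold change was -0.65 (adjusted p = 0.0168), with all uniquely aligned reads it was -0.95 (adjusted p = 0.00305), and with library size alone it was 0.045 (adjusted p = 0.866). Of the exon bases of S100A13, 24.2% are shared on the same strand with the lncRNA ENSG00000271853, which had 0 reads in every library. Reads in the shared bases could therefore have been set aside as ambiguous.

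The unequal falls changed the makeup of S100 RNA within each library, a measure that does not depend on the scaling between libraries. S100A6 made up 52.0%, 52.8% and 49.1% of the reads of the 10 genes in EV B1, B2 and B3 and 28.5%, 43.2% and 40.5% in PRL3 B9, B10 and B11. S100A10 rose in share, from 12.1%, 10.8% and 11.7% to 24.4%, 18.7% and 22.7%. For both genes the groups did not overlap, and library B9 was the most extreme. S100A4 (7.63% ± 0.336 in EV, 4.42% ± 0.276 in PRL3) and S100A1 (0.637% ± 0.144 and 0.377% ± 0.107) also had lower shares in all PRL3 libraries. S100A13 (0.906% ± 0.122 and 2.39% ± 0.586) and S100B (2.08% ± 0.151 and 2.84% ± 0.593) had higher ones (SD, n = 3). For these 6 genes the exact permutation test, two-sided, gave p = 0.1, the smallest possible, and 0.167 after adjustment over the 10 shares, so none could pass 0.05. The shares of S100A2, S100A3, S100A11 and S100A16 overlapped between the groups.

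The reads of the 10 genes together made up 0.245% ± 0.0303 of all gene reads in EV and 0.0991% ± 0.0129 in PRL3 (SD, n = 3 each). The groups did not overlap (exact permutation p = 0.1), and the summed normalised count was 3.48-fold lower in PRL3.

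**Figure D3:**
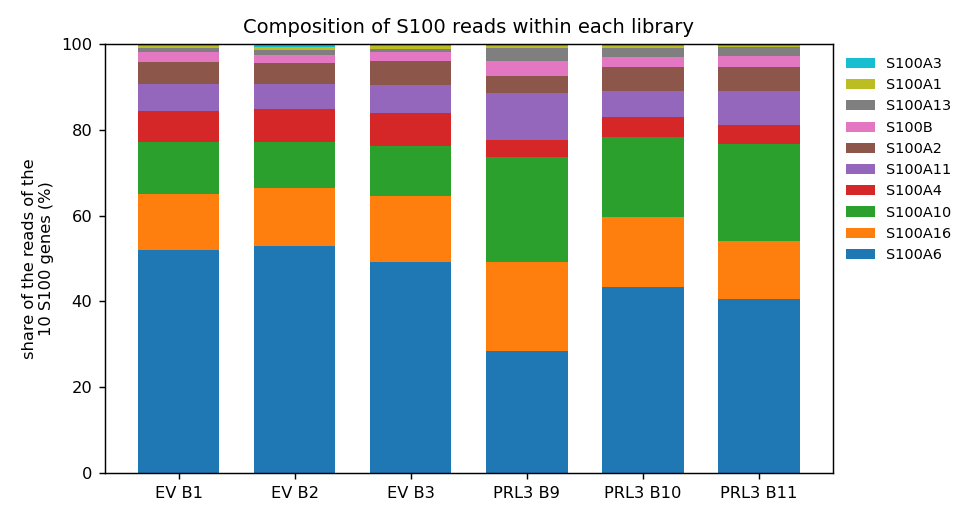
Share of each S100 gene in the summed reads of the 10 genes, in percent, with 1 stacked bar per library. S100A6 takes 49.1% to 52.8% in the EV libraries and 28.5% to 43.2% in the PRL3 libraries, while S100A10 takes 10.8% to 12.1% and 18.7% to 24.4%.

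Ratios within a library were formed for 7 pairs of genes, chosen after the data had been seen as neighbours or binding partners. The log2 ratio of S100A10 to ANXA2, its annexin partner, was -2.52, -2.40 and -2.59 in EV and -3.51, -3.47 and -3.28 in PRL3. This is a shift of -0.92 without overlap (exact permutation p = 0.1, adjusted over the pairs 0.14). The log2 ratio of S100A13 to S100A1, which overlap head to head on opposite strands, went from 0.52 ± 0.18 to 2.68 ± 0.34 (SD, n = 3), again without overlap (exact permutation p = 0.1, adjusted 0.14). The log2 ratio of S100A10 to S100A6 shifted by 1.40, that of S100A3 to S100A4 by 0.67 and that of S100A5 to S100A6 by 2.69, each without overlap (exact permutation p = 0.1, adjusted 0.14), where S100A5 rests on 18 to 100 reads per library. The ratio of S100A4 to S100A6 overlapped between the groups, with a shift of -0.31 (exact permutation p = 0.2, adjusted 0.2). The ratio of S100A11 to ANXA1 overlapped between the groups, with a shift of -0.37 (exact permutation p = 0.2, adjusted 0.2).

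Short genes as a class stood lower in PRL3 cells, and the S100 genes can be read beside them. Among protein-coding genes tested, 31.6% were called lower and 15.2% higher. Among the 2782 of them that span under 10 kb, 48.4% were called lower and 8.84% higher, with a median log2 fold change of -0.64 and a lower quartile of -1.34. The median of the S100 genes, -1.68, was below that quartile, and 8 of the 10 members were beyond -1.34 themselves. S100A10, S100A11 and S100A13 span more than 10 kb and so lie outside this class, though they enter the median of the 10. The class was not matched to the members for level. This is a description, since members of 1 family are not independent draws.

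**Figure D4:**
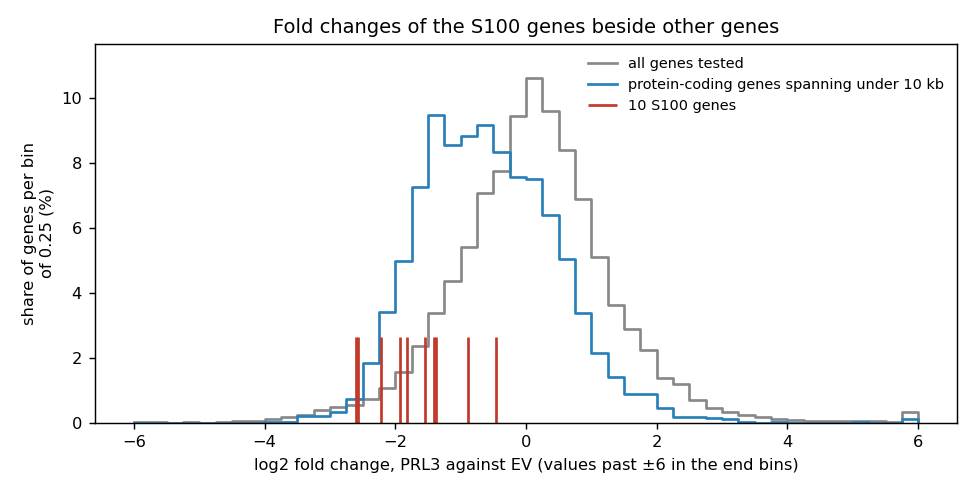
Distribution of log2 fold changes, PRL3 against EV, as the share of genes per bin of 0.25 for all 23884 genes tested (grey) and for the 2782 protein-coding genes spanning under 10 kb (blue), with a red mark for each of the 10 S100 genes. The red marks run from -2.60 to -0.46, left of the grey median of 0.11, and most are left of the blue median of -0.64.

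The other S100 genes had few reads in A375 cells. Of 11 such genes, 4 passed the filter on low counts, and 0 of these passed the test. The count was also 0 at an unadjusted p below 0.05 and 0 by DESeq2 or limma-voom. Over all genes tested, 22.7% were called lower and 20.0% higher. With 4 genes at 12 to 117 reads per library, the lack of a call does not show that they were unchanged. S100A5, which lies between S100A6 and S100A4, had 28.0, 28.9 and 38.2 normalised counts in EV and 18.5, 74.4 and 52.5 in PRL3, with a log2 fold change of 0.61 (SE 0.57, adjusted p = 0.419). S100P, known from placenta and carcinomas, was the highest of them per exon length, with 4.19 ± 1.14 RPKM in EV and 2.26 ± 1.45 in PRL3 (SD, n = 3), and had a log2 fold change of -0.88 (SE 0.48, adjusted p = 0.163). S100A14, an epithelial member, was at -0.18 (SE 0.64) and S100Z at -0.35 (SE 0.45), with groups that overlapped. S100A9, a subunit of the myeloid protein calprotectin, had 26 reads in EV B2, 8 in PRL3 B10 and 0 in the other libraries, and was not tested. The remaining 6 had at most 2 reads in any library. A count of 0 allows up to 3 reads per library by counting error alone, so such levels were not detectable at this depth.

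In the 1q21 block the S100 genes sat among genes that differed in direction. From a fixed list of 25 neighbours, 24 were matched and 16 tested, of which 9 were called lower and 2 higher, with a median log2 fold change of -0.48. Over all genes tested the shares were 22.7% lower and 20.0% higher, and over protein-coding genes 31.6% and 15.2%. ILF2, a subunit of a double-stranded RNA binding complex, was at -1.51 (SE 0.16, adjusted p = 1.63e-05). SNAPIN, which acts in vesicle fusion, was at -0.66 (SE 0.16, adjusted p = 0.00446). CHTOP, an RNA export factor beside S100A1, was at 0.55 (SE 0.15, adjusted p = 0.00877). The lowest of the list was JTB at -1.72 and the highest was FLG, the skin barrier gene filaggrin, at 1.30. With library size alone, 5 neighbours were called lower and 5 higher, beside 12.9% and 39.8% of all genes. With all uniquely aligned reads, 10 neighbours were called lower and 1 higher, beside 35.5% and 8.17% of all genes. The lncRNA ENSG00000272030, which overlaps the end of S100A1 on the opposite strand, was at 0.80 (SE 0.24, adjusted p = 0.017) and was singled out after its value was seen. With TMM scaling, falls and rises thus stood within a few kb of each other, as the map of the block shows. The number of rises depended on the scaling.

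**Figure D5:**
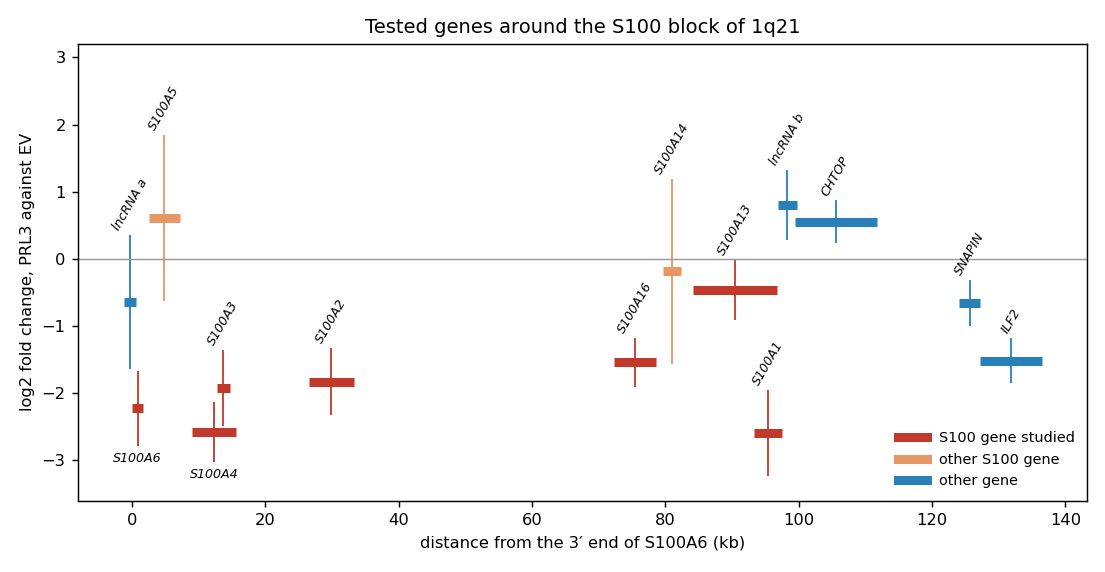
Log2 fold change, PRL3 against EV, of each tested gene in the 1q21 block, drawn over its span in kb from the 3′ end of S100A6, with the 95% interval as a thin line. Listed S100 genes (red) lie between -2.60 and -0.46, S100A5 and S100A14 (orange) have intervals across 0, CHTOP is at 0.55, and lncRNA a and lncRNA b are ENSG00000238279 (-0.64) and ENSG00000272030 (0.80).

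Genes whose products bind or receive S100 proteins were compared in the same fit, along with some otherwise linked to them. The latter include MMP2 and MMP9, both called lower, and PLAU and PLAUR, neither called. Of 31 such genes in a fixed list, 17 were called lower and 0 higher, with a median log2 fold change of -0.54. Among protein-coding genes tested, 31.6% were called lower and 15.2% higher, and among all genes tested 22.7% and 20.0%. Of the 31, 1 gene was higher at an unadjusted p below 0.05 by edgeR, while DESeq2 called 0 higher and limma-voom called 1. The lowest was BSG, which encodes the membrane glycoprotein basigin, at -2.06 (SE 0.21). The highest was GFAP, an intermediate filament gene of astrocytes, at 1.34 (SE 0.55, adjusted p = 0.0648), with at most 84.1 normalised counts in any library.

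The annexin partners differed from each other. ANXA1 had 41354 to 67178 normalised counts in EV and 23429 to 26061 in PRL3, with a log2 fold change of -1.08 (SE 0.19, adjusted p = 0.000474). ANXA2 had 81770 to 94813 in EV and 88671 to 95717 in PRL3, with a log2 fold change of 0.03 (SE 0.15, adjusted p = 0.881). AHNAK, a giant scaffold protein bound by the S100A10 and annexin A2 complex, was at -0.12 (SE 0.15, adjusted p = 0.572), and its groups overlapped. CACYBP, the partner of S100A6, fell with a log2 fold change of -1.22 (SE 0.21, adjusted p = 0.000445). MYH9, the heavy chain of the myosin that S100A4 binds, was at 0.16 (SE 0.14, adjusted p = 0.389). AGER, the receptor RAGE, had 203 to 275 normalised counts in EV and 121 to 168 in PRL3. These ranges did not overlap, but its log2 fold change of -0.69 (SE 0.27, adjusted p = 0.0573) did not pass the threshold.

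The identity of the cells was checked with marker lists. SOX10, a transcription factor of the melanocyte and Schwann lineages, had 18852 to 28364 normalised counts in EV and 10593 to 13992 in PRL3 and fell with a log2 fold change of -0.85 (SE 0.18, adjusted p = 0.00213). Pigment genes were low: PMEL had 31.3 to 55.5 normalised counts in EV and 23.8 to 60.03 in PRL3 (log2 fold change -0.33, SE 0.54, adjusted p = 0.664), TYRP1 at most 24.1 and DCT at most 10.7 in any library, and TYR and MLANA were at or near 0 in all 6. MITF, which drives the melanocyte lineage, had 1208 to 1492 normalised counts in EV and 1714 to 1810 in PRL3, with a log2 fold change of 0.36 (SE 0.15, adjusted p = 0.0738). All 4 of the Schwann cell genes, which include SOX10 and the member S100B itself, were called lower, as were 31.6% of protein-coding genes. Of 5 genes of dedifferentiated melanoma, 3 (AXL, NGFR and TNC) were called lower, beside the same 31.6%. The others, EGFR (log2 fold change 0.086, adjusted p = 0.716 by edgeR) and NT5E (-0.035, adjusted p = 0.875), were not called.

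Some S100 genes are also made by keratinocytes, fibroblasts and leukocytes. The summed keratinocyte list ran from 3450 to 4382 normalised counts in EV and from 835 to 1174 in PRL3. Of its 6 genes, only KRT14 and KRT10 were tested, and both were called lower. Its other genes, KRT5, KRT1, TP63 and DSG3, were at or near 0 in every library. The summed fibroblast list ran from 928 to 1132 in EV and from 641 to 698 in PRL3, with 1 of 6 genes called lower. For both lists, the share of protein-coding genes called lower was 31.6%. The summed leukocyte list ran from 86.4 to 202 in EV and from 120 to 143 in PRL3, and neither of its tested genes, CD14 (log2 fold change 0.93, adjusted p = 0.228) and LYZ (-0.55, adjusted p = 0.27), passed the threshold. The part of these other genes in the S100 differences was not tested.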

How the data were processed

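Nascent RNA of A375 cells was measured by 4sU-seq in 3 EV and 3 PRL3 libraries. The authors aligned reads to GRCh38 with STAR (2.5.1b) and counted exon reads per Ensembl gene (release 91) with HTSeq (0.6.1) on the reverse strand, and the deposited values are these raw counts. Of 58243 gene identifiers, 57532 matched GENCODE release 44. The unassigned rows stayed out of library sizes. Counts were tested in R 4.3.3 with edgeR 4.0.16 (TMM scaling, filterByExpr, quasi-likelihood F test, Benjamini-Hochberg adjustment over 23884 genes, threshold 0.05). Levels are reads per kb of the union of annotated exons relative to the TMM-scaled library size (RPKM). Single values were compared by two-sided exact permutation tests. Libraries of a group differed beyond counting error (chi-square per gene averaging 25.3 to 80.9), so none was treated as a second sequencing run of another. This cannot tell whether they came from separate cultures. Coefficients of variation are between libraries of a group.

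Tested on simulated data of this comparison (22767 genes), 2-fold changes of 200 genes were recovered for 43.5%, and on 22801 genes 3-fold changes for 69%. Only these 200 genes changed in the simulation, whereas 5426 genes were called lower and 4783 higher in the data. Adjustment is stricter where few genes change, so these rates need not hold for the real comparison. Alternatives were scaling by RLE, upper quartiles, library size alone or all uniquely aligned reads, the tools DESeq2 1.42.0 and limma-voom (limma 3.58.1), other filters on low counts, a stricter threshold (0.01), a fit of protein-coding genes, and leaving out each library. Every S100 member is named. Other S100 genes are named where a library had 10 or more reads. Of the partner and neighbour lists, 9 preset genes and each list's lowest and highest are named. The members and lists were chosen with earlier results of these data known.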

Additional observations from a re-analysis of the deposited data

Results flagged for a closer look

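The share of uniquely aligned reads outside annotated exons, which enters no gene count, averaged 66.3% in the PRL3 libraries against 33.3% in the EV controls (SD 3.18 and 6.75, n = 3 each). It was higher in 3 of 3 PRL3 libraries, with a two-sided exact permutation p of 0.1, the lowest this design can reach. The deposited counts do not say where in genes these reads lay, so S100 intron or flanking reads were not analysed here.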

How the results depend on the processing

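The 9 called S100 genes stayed lower under every scaling, test, filter, threshold and left-out library tried, and 0 were called higher. S100A13 joined them with all uniquely aligned reads (-0.95, adjusted p = 0.00305 by edgeR) and without EV B3 (-0.65), and was at 0.045 with library size alone, with adjusted p from 0.00305 to 0.866 over its alternatives. The median log2 fold change of the members was -1.20 with library size alone, -2.16 with all uniquely aligned reads and -1.84 to -1.54 with 1 library left out. The share of S100A2 changed by -0.60 to 0.35 percentage points with 1 library left out, positive without PRL3 B9. In the partner list, 6 genes were called higher with library size alone and 2 in the fit of protein-coding genes only. Upper-quartile scaling, limma-voom or no filter each gave 1. With 1 library left out, 0 to 1 were higher (1 without EV B3) and 12 to 18 were lower. Of the neighbours, 5 were lower and 5 higher with library size alone, 1 was higher with all uniquely aligned reads, and 6 to 9 were lower with 1 library left out. Over all genes, 39.8% were higher with library size alone, 23.9% in the protein-coding fit and 26.6% with upper-quartile scaling. The share was 22.3% with limma-voom, 13.8% with no filter and 8.17% with all uniquely aligned reads. With 1 library left out, 12.9% to 23.7% were higher and 17.4% to 23.5% lower. By longest transcript, S100A11 and S100A16 exchanged ranks 3 and 4 in EV. No paired analysis was possible because EV and PRL3 libraries have no replicate number in common. Calls over all genes moved from 5426 lower and 4783 higher to 3078 and 9514 with library size alone and to 8473 and 1952 with all uniquely aligned reads. The cause was not tested.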
